A study of Mus musculus with 112 samples.

Results

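The tumours described here were parted by their level of Adi1, a gene on mouse chromosome 12. The groups were chosen by the measured value of 1 Adi1 probe set. Of 56 tumours in the series, 52 were split at a log2 value of 8.32, which lies in a gap of its values, into 34 with a high level (Adi1-high) and 18 with a low level (Adi1-low). The 3 tumours of subline 23 and tumour 3 of subline 25 were left out. All were mammary tumours that arose in mice with an MMTV-PyMT transgene. In it the promoter of the mouse mammary tumour virus (MMTV), active mainly in mammary epithelium, drives the middle T antigen of polyoma virus (PyMT), and both groups carried it. The mice came from crosses with AKXD sublines, a panel of recombinant inbred lines that each fix a different mosaic of the genomes of the strains AKR/J and DBA/2J. The sources used here do not give the ages of the mice or the strain that brought the transgene. RNA of each tumour was measured on a pair of Affymetrix expression arrays, named A (MOE430A) and B (MOE430B) here, and array B was used for 51 of these tumours (34 Adi1-high and 17 Adi1-low) after tumour 3 of subline 11 was left out.

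Adi1 encodes acireductone dioxygenase, an enzyme of the methionine salvage pathway, which returns the methylthio group left over from polyamine synthesis to methionine. The protein is also known as a binding partner of the cytoplasmic tail of Mmp14, a membrane-bound matrix metalloproteinase. In recombinant inbred lines, genes that lie near each other on a chromosome are usually inherited together from the same parental strain, whereas genes on different chromosomes are sorted independently when a panel is founded. For this reason the genes near Adi1 on chromosome 12 are described apart from all others.

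Since the split was made on this Adi1 probe set, its values are a description only. Its log2 value ran from 8.49 to 8.98 with a median of 8.77 in the Adi1-high tumours, and from 7.54 to 8.08 with a median of 7.85 in the Adi1-low tumours. The values left a gap of 0.40 between subline 25 tumour 1, just below the split at 8.08, and subline 21 tumour 1, just above it at 8.49. The group means were 8.77 ± 0.10 (SD, n = 34) and 7.87 ± 0.14 (SD, n = 18), a difference of 0.90 or 1.86-fold.

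The level followed the subline in most cases. All tumours were Adi1-high in 10 of the 17 sublines, namely 3, 7, 9, 13, 14, 21, 22, 24, 27 and 28, and all were Adi1-low in 5, namely 10, 11, 16, 18 and 25. Sublines 2 and 20 held both levels. In subline 2, tumours 1 and 2 read 8.84 and 8.75, and tumours 3 and 4 read 8.04 and 7.80. In subline 20, tumours 1 and 3 read 8.76 and 8.77, and tumour 2 read 7.82. Tumours of a subline therefore mostly shared a level, so the number of sublines, rather than the number of tumours, sets how much independent evidence the comparison holds.

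**Figure D1:**
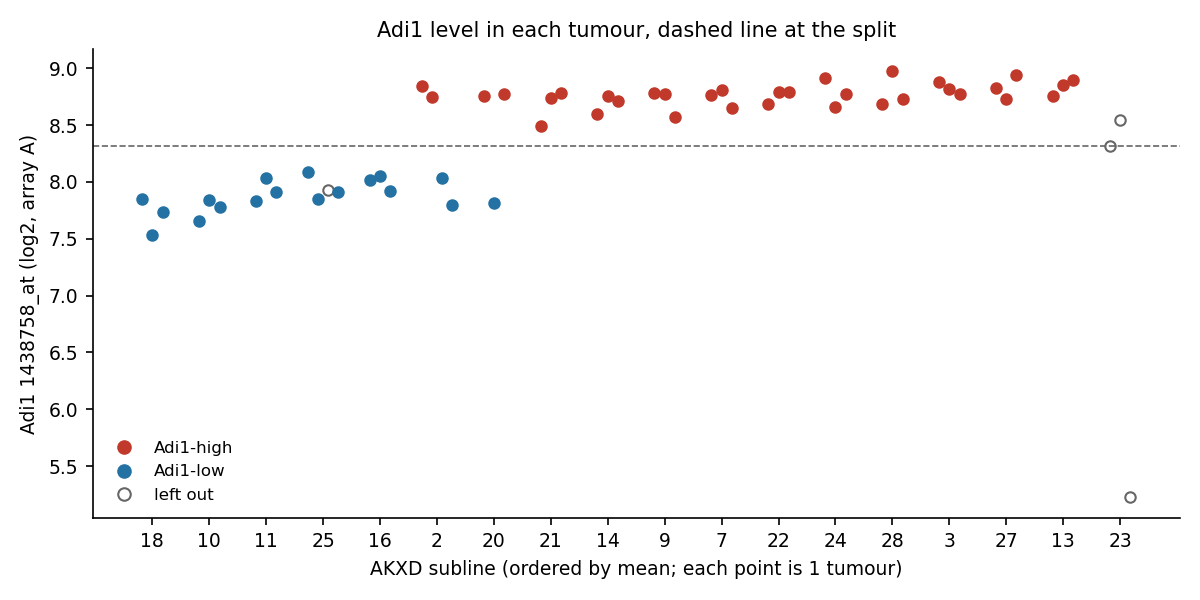
Log2 value of the Adi1 probe set used for the split on array A (vertical axis) in each tumour, by AKXD subline (horizontal axis, ordered by mean). Red points are Adi1-high, blue points Adi1-low, open points tumours left out of the split, and the dashed line is the split at 8.32; no tumour of the split lies between 8.08 and 8.49, and only sublines 2 and 20 hold both colours.

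Array quality was compared between the groups. Median correlations with the other arrays of the type ran from 0.970 to 0.991 in Adi1-high and from 0.984 to 0.991 in Adi1-low tumours on array A, and array medians ran from 7.82 to 7.89 and from 7.84 to 7.89. The Gapdh 3′ minus 5′ log2 difference, a measure of RNA integrity, ran from -0.28 to 0.19 in Adi1-high and from -0.27 to -0.11 in Adi1-low tumours on array A, with medians of -0.16 and -0.19. It was above 0 on 7 of 34 Adi1-high and 0 of 18 Adi1-low arrays A, and on 4 of 34 and 0 of 17 arrays B; its part in the results was not tested. The labelled tissue was checked against 11 luminal epithelial genes such as Krt8, Krt18 and Epcam. All 11 were above the brightest absent control on array A, and the log2 of their summed level ran from 14.37 to 15.48 in Adi1-high and from 15.13 to 15.43 in Adi1-low tumours. Tumours are mixtures of cells, and in such bulk samples fewer cells of a type and less RNA per cell cannot be told apart.

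Few genes separated with the Adi1 level, and those with a single gene symbol lay on chromosomes 12 and 16. On array A, 8 of 22625 probe sets (0.0354%) passed an adjusted p of 0.05 for Adi1-high minus Adi1-low in limma, 6 higher (0.0265%) and 2 lower (0.00884%) in the Adi1-high tumours. At an unadjusted p under 0.05 there were 1742 (7.7%). The called ones were a second probe set of Adi1, 1 probe set each of Zfp277, Pik3cg and Sypl on chromosome 12, 3 of Pdxdc1 on chromosome 16 (1 higher and 2 lower), and 1416153_at, whose annotation holds several symbols and which is singled out here after its values were seen. On array B, 2 of 22511 probe sets (0.00888%) passed, Bfar on chromosome 16, which was higher (0.00444%), and 1441848_at, which has no symbol, was lower and is likewise singled out afterwards. At an unadjusted p under 0.05 there were 1170 on array B (5.2%). The median difference over all probe sets was -0.0040 on array A and 0.00019 on array B, and 99% of the absolute differences were below 0.24 and 0.19. The within-subline correlation that limma shared among all probe sets was 0.0456 on array A, which is low for probe sets that follow the subline, so the same test was run on 1 mean per subline and level. On array A that test called 6 probe sets, all among the 8: those of Zfp277, Pik3cg, Pdxdc1 and Adi1. On array B it called 1 probe set, of Sypl, and neither of the 2. The array A count of 8 fell to 5 without tumours numbered 3, and it rose to 13 without subline 11, of which 7 were among the 8. The array B count of 2 was 0 without any one of sublines 2, 13, 18 or 20, 1 without 3, 11, 21 or 25, and 4 without subline 9. Without tumours numbered 1 or 3 it was 0, and without those numbered 2 or 4 it was 1. The 1 probe set called without subline 25, or without tumours numbered 2, was not among the 2.

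The other Adi1 probe sets did not behave alike. Probe set 1438759_x_at read 9.13 at the lowest, 9.40 at the median and 9.66 at the highest in Adi1-high tumours, against 8.83, 9.09 and 9.36 in Adi1-low tumours. The ranges overlapped, and 46 of 52 tumours lay on the side of the midpoint that their level gives. It was higher in the Adi1-high tumours by 0.30 ± 0.04 (log2 difference ± SE, adjusted p = 1.64e-07). Because it measures the gene used for the split, it is no independent result. Probe set 1449076_x_at read 6.70, 7.06 and 7.38 in Adi1-high and 6.84, 7.15 and 7.32 in Adi1-low tumours. Its difference was -0.06 ± 0.04 (adjusted p = 0.685), with 33 of 52 tumours on the side of the level.

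Zfp277 followed the Adi1 level in every tumour of the split. This gene, 53 measured genes from Adi1 along chromosome 12, encodes a zinc finger protein known to repress the Ink4a/Arf locus together with Polycomb proteins. Probe set 1433953_at read 8.59 at the lowest, 8.80 at the median and 9.21 at the highest in Adi1-high tumours, and 7.74, 8.07 and 8.34 in Adi1-low tumours. It was the only 1 of the 22625 probe sets on array A (0.00442%) whose values did not overlap between the groups, and no probe set on array B was of this kind. The difference was 0.74 ± 0.04, or 1.66-fold (adjusted p = 1.72e-20). Means of the sublines with 1 level ran from 8.68 in subline 22 to 8.88 in subline 24 when Adi1-high, and from 7.90 in subline 16 to 8.22 in subline 10 when Adi1-low. On subline means the adjusted p was 1.98e-10. Over all 35 alternatives, 1 of which used the Adi1 value in place of the levels, the estimate stayed between 0.69 and 0.77. A second probe set, 1443362_at on array B, read 7.96, 8.47 and 8.76 against 8.20, 8.33 and 8.52. It differed by 0.08 ± 0.04 (adjusted p = 0.942), and 31 of 51 tumours lay on the side of the level.

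Pik3cg was also higher in the Adi1-high tumours. It encodes the catalytic subunit of the gamma form of phosphoinositide 3-kinase, which is best known in white blood cells, and lies 23 measured genes from Adi1. Probe set 1422707_at read 7.91, 8.22 and 9.00 in Adi1-high and 7.33, 7.69 and 8.09 in Adi1-low tumours, so the groups overlapped. The difference was 0.55 ± 0.07, or 1.47-fold (adjusted p = 1.80e-06), with 44 of 52 tumours on the side of the level. Among sublines with 1 level the lowest Adi1-high mean was 8.11, in subline 28, and the highest Adi1-low mean was 7.85, in subline 11. The share of all probe sets whose subline means part in this way was not counted. Marker sums of white blood cells had nearly the same medians in both groups. The log2 of the summed level of 9 macrophage genes had a median of 13.67 in Adi1-high (12.93 to 14.44) and 13.68 in Adi1-low tumours (13.03 to 14.00). That of 8 neutrophil genes had a median of 13.11 in both (11.50 to 13.66 and 12.27 to 14.22). Its brightest gene, Ltf, had a mean of 12.74, against 9.28 for S100a8. The neutrophil sum therefore says little about its other genes. The T cell sum, of 7 genes, had a median of 9.97 in both (9.79 to 10.24 and 9.83 to 10.25). The sum of 6 B and plasma cell genes had medians of 10.30 and 10.26 (10.03 to 11.29 and 10.03 to 10.70). Its brightest gene, Ighm, had a mean of 9.68. No marker of these lists was below the brightest absent control in its mean. The call stayed with scores of T cells, B and plasma cells, adipocytes and skeletal muscle in the fit, and the part of macrophages and neutrophils was not tested. The other Pik3cg probe set, 1422708_at, ran from 5.53 to 7.13 in Adi1-high and from 5.81 to 6.86 in Adi1-low tumours, a difference of 0.11 ± 0.09 (adjusted p = 0.762).

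Sypl, which encodes a synaptophysin-like membrane protein of transport vesicles, lies 28 measured genes from Adi1. Probe set 1422882_at read 7.27, 7.70 and 8.05 in Adi1-high and 7.31, 7.45 and 7.76 in Adi1-low tumours. The ranges overlapped over most of their length, and 40 of 52 tumours lay on the side of the level. All 3 tumours of subline 22, which is Adi1-high, lay below the midpoint of 7.59, at 7.27 to 7.53. The difference was 0.21 ± 0.04 (adjusted p = 0.0161), and it no longer passed on subline means (adjusted p = 0.670). Probe set 1435082_at on array B differed by 0.29 ± 0.06 and did not pass (adjusted p = 0.156), but passed on subline means (adjusted p = 0.0179). Of the other 5 Sypl probe sets, on both arrays, the differences lay between -0.02 and 0.03 and none passed.

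**Figure D2:**
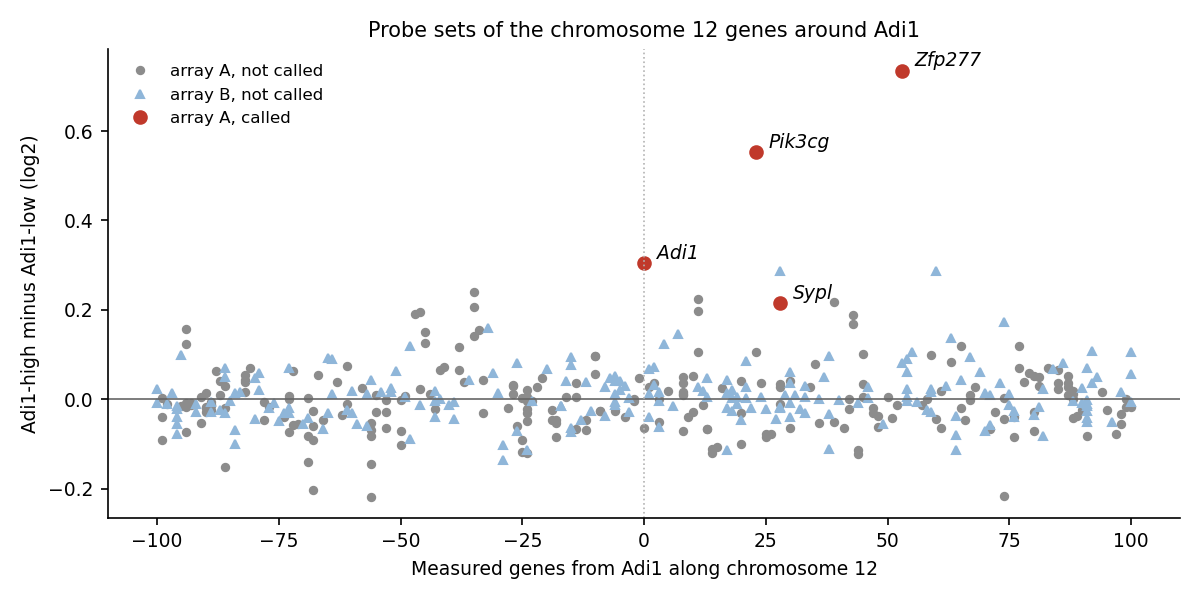
Adi1-high minus Adi1-low difference in log2 value (vertical axis) of each probe set of the genes up to 100 measured genes from Adi1 on chromosome 12 (horizontal axis, in gene order), for both arrays; the probe set used for the split is not drawn. Large red points are called, at 0.74 for Zfp277, 0.55 for Pik3cg, 0.30 for Adi1 and 0.21 for Sypl; most other points lie near 0, including those next to Adi1.

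Most genes around Adi1 on chromosome 12 did not pass. Within 100 measured genes on either side, 242 probe sets of 130 genes were tested on array A, and those of Zfp277, Pik3cg and Sypl were the 3 called. Their median difference was -0.0040, the same as over all probe sets. At an unadjusted p under 0.05 there were 31 probe sets (12.8%) in this stretch, 18 higher and 13 lower, against 31 of 429 (7.23%) on the rest of chromosome 12 and 1540 of 19703 (7.82%) on other chromosomes. Within 50 genes the share was 16.7% (20 of 120 probe sets). These shares were not compared by a test. No probe set on the rest of chromosome 12 was called in limma. Between Adi1 and Zfp277 lay 61 probe sets of 34 genes, of which the 2 called were those of Pik3cg and Sypl, and 11 (18.0%) had an unadjusted p under 0.05. On array B, limma called none of 207 probe sets within 100 genes, and 21 (10.1%) had an unadjusted p under 0.05, against 6.76% on the rest of chromosome 12 and 5.2% over all of array B.

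The genes next to Adi1 did not pass. Among the 3 measured genes on either side, the ribosomal protein gene Rps7 differed by 0.0011 ± 0.021 and -0.0048 ± 0.031 at its probe sets, and Rnaseh1, a ribonuclease that cuts RNA paired with DNA, by 0.05 ± 0.03. Trappc12, which encodes a subunit of a vesicle tethering complex, differed by at most 0.07 ± 0.03 (adjusted p = 0.889), and Eipr1 by at most 0.07 ± 0.03 (adjusted p = 0.942). None of the probe sets of Colec11 and Myt1l passed either. Farther out, Lamb1, a laminin chain 11 genes away, differed by 0.23 ± 0.07 (adjusted p = 0.526) at its most shifted probe set. Stxbp6 on array B, 60 genes away, differed by 0.29 ± 0.08 (adjusted p = 0.492). Lamb1 and Stxbp6 were picked here after their values were seen.

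Outside chromosome 12, the largest difference among called probe sets was in Pdxdc1 on chromosome 16, which encodes a protein with a pyridoxal-dependent decarboxylase domain. Probe set 1419327_at read 7.70, 9.40 and 9.62 at the lowest, median and highest in Adi1-high tumours, and 7.23, 7.48 and 7.86 in Adi1-low tumours. The groups overlapped through 1 tumour: subline 24 tumour 2, Adi1-high, read 7.70, and the other 51 lay on the side of their level. The difference was 1.85 ± 0.08, or 3.60-fold (adjusted p = 6.93e-25). Means of the sublines with 1 level ran from 8.92, in subline 24, to 9.50, in subline 27, when Adi1-high, and from 7.33 to 7.74 when Adi1-low.

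Other Pdxdc1 probe sets went the opposite way. Probe set 1452705_at read 8.19, 8.37 and 9.09 in Adi1-high and 8.86, 9.00 and 9.20 in Adi1-low tumours, with the same tumour of subline 24, at 9.09, the exception. It was lower in the Adi1-high tumours by 0.61 ± 0.04 (difference -0.61, adjusted p = 2.47e-15). Probe set 1436372_a_at differed by -0.29 ± 0.05 (adjusted p = 0.00141), with 42 of 52 tumours on the side of the level. The fourth probe set, 1428200_a_at, differed by -0.12 ± 0.04 and did not pass (adjusted p = 0.526). The direction found for Pdxdc1 thus depended on the probe set.

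**Figure D3:**
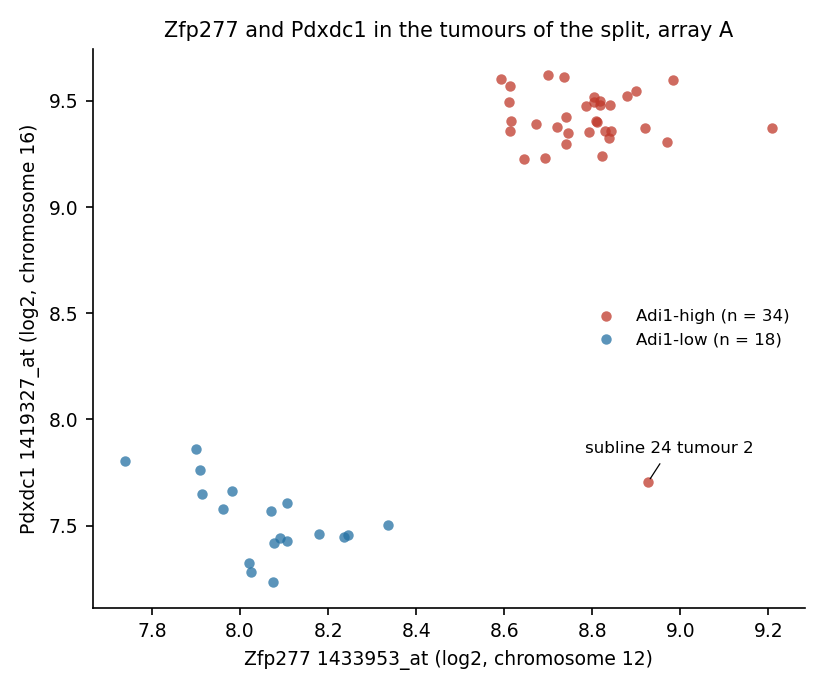
Log2 value of Zfp277 probe set 1433953_at on chromosome 12 (horizontal axis) and of Pdxdc1 probe set 1419327_at on chromosome 16 (vertical axis) on array A, 1 point per tumour of the split. The 34 Adi1-high tumours (red) lie at the upper right and the 18 Adi1-low tumours (blue) at the lower left, except for subline 24 tumour 2, which has a Zfp277 value of 8.93 and a Pdxdc1 value of 7.70.

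Bfar, an endoplasmic reticulum protein known to restrain apoptosis, lies 5 measured genes from Pdxdc1 on chromosome 16. Probe set 1429165_at on array B read 6.29, 6.54 and 6.87 in Adi1-high and 5.85, 6.33 and 6.61 in Adi1-low tumours, which overlapped. The difference was 0.26 ± 0.05 (adjusted p = 0.0163), with 39 of 51 tumours on the side of the level, and it did not pass on subline means (adjusted p = 0.341). The 3 Bfar probe sets on array A differed by 0.0079 ± 0.027, 0.07 ± 0.04 and 0.08 ± 0.05, and none passed. Among the 10 measured genes on either side of Pdxdc1, 38 probe sets were tested on both arrays and Bfar's was the 1 called. An unadjusted p under 0.05 was found for 5 of 20 on array A, against 7.7% of all probe sets, and for 3 of 18 (16.7%) on array B, Bfar's included, against 5.2%. Ntan1, the gene next to Pdxdc1, differed by 0.11 ± 0.04 (adjusted p = 0.576).

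Of the called probe sets without a single symbol, 1416153_at read 11.54, 11.92 and 12.44 in Adi1-high and 11.47, 11.64 and 11.86 in Adi1-low tumours. It differed by 0.30 ± 0.06 (adjusted p = 0.0119), with 41 of 52 tumours on the side of the level, but not on subline means (adjusted p = 0.670). Probe set 1441848_at on array B read 6.84, 7.14 and 7.64 against 7.12, 7.40 and 7.84. It differed by -0.28 ± 0.05 (adjusted p = 0.0163), or adjusted p = 0.0517 on subline means.

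**Figure D4:**
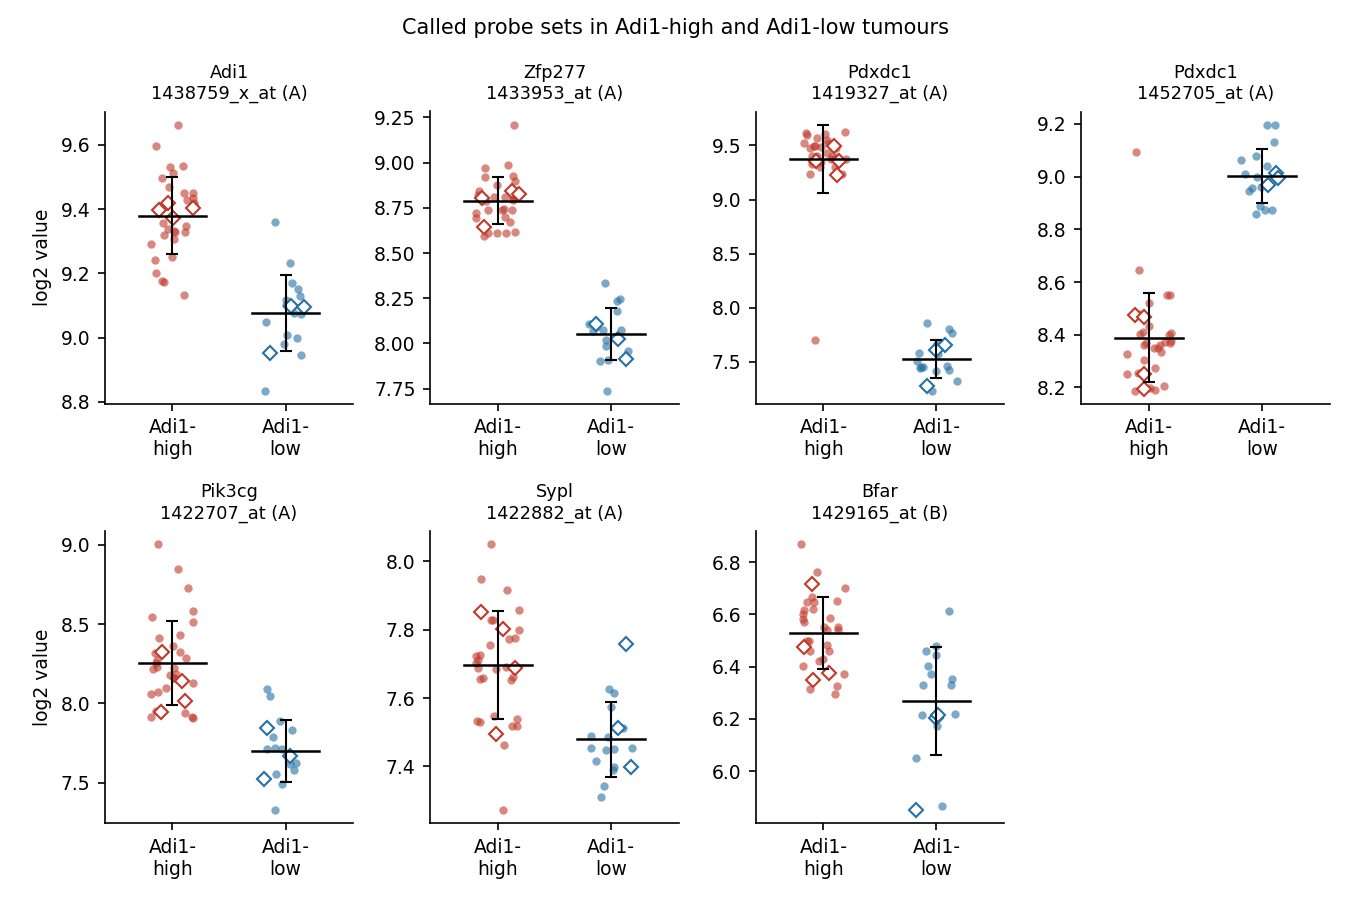
Log2 values (vertical axes, which differ between panels and do not start at 0) of 7 called probe sets with a single gene symbol in Adi1-high (red) and Adi1-low (blue) tumours; the array is in brackets, each point is 1 tumour, open diamonds are tumours of sublines 2 and 20, and black bars are the mean and SD. Zfp277 separates the groups with no overlap, both Pdxdc1 panels have 1 exception, and Adi1, Pik3cg, Sypl and Bfar overlap.

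The promoter windows of the called genes with a RefSeq entry (GRCm38.p6, all but Adi1) are given to show what their starts hold. The calls of Sypl and Bfar did not pass on subline means, and Pdxdc1 was called in both directions. Each is the 250 bases before the first listed start, 5′ to 3′ on the gene's strand. Pik3cg and Sypl have a further listed start that is not printed. That of Sypl holds 3 GC boxes and 72.0% G and C, and that of Pik3cg none of the motifs searched. Capitals mark a match, on either strand, to the GC box (GGGCGG). They also mark the CCAAT box, searched by those letters, and the TATA box, searched as TATAAA. The E box was searched as CACGTG, and none of these motifs holds another. Zfp277 (chr12:40445791-40446040, minus strand), Pik3cg (chr12:32208660-32208909, minus strand) and Sypl (chr12:32953695-32953944, plus strand) come first, then Pdxdc1 (chr16:13903146-13903395, minus strand) and Bfar (chr16:13671608-13671857, plus strand).
Zfp277: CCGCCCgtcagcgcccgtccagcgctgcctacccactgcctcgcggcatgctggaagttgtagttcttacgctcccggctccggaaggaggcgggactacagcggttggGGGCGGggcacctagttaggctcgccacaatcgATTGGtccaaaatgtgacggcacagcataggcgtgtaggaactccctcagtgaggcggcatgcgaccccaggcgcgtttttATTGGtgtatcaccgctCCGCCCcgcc
Pik3cg: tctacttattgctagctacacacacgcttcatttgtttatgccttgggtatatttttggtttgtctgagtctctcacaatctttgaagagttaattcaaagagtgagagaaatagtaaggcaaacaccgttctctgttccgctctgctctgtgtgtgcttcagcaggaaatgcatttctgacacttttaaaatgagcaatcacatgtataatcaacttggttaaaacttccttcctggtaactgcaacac
Sypl: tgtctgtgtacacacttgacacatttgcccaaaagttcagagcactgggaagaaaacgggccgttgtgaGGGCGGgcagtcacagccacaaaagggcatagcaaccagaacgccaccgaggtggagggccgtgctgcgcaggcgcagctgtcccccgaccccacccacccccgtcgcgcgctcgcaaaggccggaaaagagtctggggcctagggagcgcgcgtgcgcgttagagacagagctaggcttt
Pdxdc1: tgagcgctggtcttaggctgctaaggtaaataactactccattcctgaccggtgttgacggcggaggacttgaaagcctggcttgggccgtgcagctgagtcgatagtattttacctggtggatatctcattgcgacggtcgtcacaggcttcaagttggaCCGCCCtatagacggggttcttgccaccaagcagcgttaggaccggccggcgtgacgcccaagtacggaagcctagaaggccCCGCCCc
Bfar: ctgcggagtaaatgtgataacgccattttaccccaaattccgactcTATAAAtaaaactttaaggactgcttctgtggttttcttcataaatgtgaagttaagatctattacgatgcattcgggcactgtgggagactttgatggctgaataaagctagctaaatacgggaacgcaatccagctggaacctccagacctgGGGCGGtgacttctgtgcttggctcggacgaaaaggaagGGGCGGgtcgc
The GC box was found 3 times for Zfp277, 1 time for Sypl, 2 times each for Pdxdc1 and Bfar, and not in the Pik3cg window, and 32.7% of 32851 RefSeq windows of this length hold it. The CCAAT box was found 2 times for Zfp277 alone (33.8% of windows hold it), and the TATA box 1 time for Bfar alone (12.4%). The E box, held by 6.02% of windows, was found in none of these 5. G and C made up 64.0% of the Zfp277 window, 62.4% of Sypl's, 57.6% of Pdxdc1's, 46.8% of Bfar's and 38.8% of Pik3cg's. No single one of these motifs was therefore shared by the starts of all 5 genes, and the motif matches are a description of sequence only.

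Sublines 2 and 20 allowed a comparison within a subline, over 7 tumours. The tumours of these sublines did not differ in Adi1 level alone. For example, H2-D1 1425614_x_at read 6.26 and 6.68 in the Adi1-high and 10.97 and 10.65 in the Adi1-low tumours of subline 2. In subline 20 it read 10.48 and 11.51 against 6.62. The comparison does not part the Adi1 level from such other differences. All 52 tumours (51 on array B) stayed in the fit. Its SE and p-values therefore rest on the spread within all 17 sublines, not within these 2 alone. With subline as a fixed term, limma called 7 of 22625 probe sets on array A (0.0309%), 3 higher (0.0133%) and 4 lower (0.0177%) in the Adi1-high tumours, and 1 of 22511 on array B (0.00444%). Zfp277 1433953_at read 8.64 and 8.84 in the Adi1-high and 7.91 and 8.11 in the Adi1-low tumours of subline 2, and 8.83 and 8.80 against 8.03 in subline 20. The levels did not overlap in either subline. With 2 against 2 and 2 against 1 tumours, a probe set can part in this way by chance. The share of all probe sets that did so was not counted. The within-subline difference was 0.76 ± 0.10 (adjusted p = 7.21e-05), close to the 0.74 over all tumours. It was 0.73 in subline 2 and 0.79 in subline 20, and a test of the difference between the sublines gave an adjusted p of 0.9998.

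Pdxdc1 also separated within these sublines. Probe set 1419327_at read 9.23 and 9.36 against 7.65 and 7.61 in subline 2, and 9.36 and 9.50 against 7.28 in subline 20. The within-subline difference was 1.86 ± 0.21 (adjusted p = 2.45e-06), and that of probe set 1452705_at was -0.64 ± 0.11 (adjusted p = 0.00232). Pik3cg 1422707_at read 8.01 and 7.94 against 7.84 and 7.67 in subline 2, and 8.14 and 8.32 against 7.52 in subline 20, a difference of 0.42 ± 0.19 that did not pass (adjusted p = 0.9999). Sypl 1422882_at differed by 0.11 ± 0.08 and Bfar 1429165_at by 0.43 ± 0.11, and neither passed (adjusted p = 0.9999 and 0.776). Adi1 1438759_x_at differed by 0.36 ± 0.09 (adjusted p = 0.421).

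The other probe sets called within the sublines were 1416153_at, 3 of Mtmr9 on chromosome 14, which encodes a myotubularin-related protein without phosphatase activity of its own, and 1453328_at on array B, which has no symbol and is singled out after its value (-0.82 ± 0.14) was seen. Mtmr9 1434676_at read 8.27 and 8.47 in the Adi1-high against 9.83 and 9.20 in the Adi1-low tumours of subline 2, and 8.43 and 8.85 against 9.82 in subline 20. The within-subline difference was -1.16 ± 0.18 (adjusted p = 0.00138), and those of the other Mtmr9 probe sets were -1.01 ± 0.17 and -1.07 ± 0.18. Over all tumours, Mtmr9 1434676_at ran from 8.27 to 9.83 in Adi1-high and from 8.32 to 10.34 in Adi1-low tumours. Its difference there was -0.42 ± 0.15 and did not pass (adjusted p = 0.576). The array A count of 7 rested on few tumours: it was 17 without subline 20, of which 3 were among the 7, and 5 without subline 2, of which 1 was. It was 2, 832, 1 and 9 when tumours numbered 1, 2, 3 and 4 were left out in turn. The array B count of 1 became 6 without subline 20 and 1023 without subline 2, and 0, 327, 0 and 0 without tumours numbered 1, 2, 3 and 4.

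The 4 tumours left out of the split had arrays A that stood apart, with median correlations of 0.222 to 0.948. Subline 25 tumour 3, with an Adi1 value of 7.93, read 7.54 for Zfp277 1433953_at and 7.34 for Pdxdc1 1419327_at, both on the low side. In subline 23, Adi1 read 8.32 (just below the split), 8.54 and 5.23 in tumours 1, 2 and 3. Zfp277 read 9.04, 7.90 and 7.42 in the same order, so that tumours 1 and 2 went against their Adi1 level. Pdxdc1 1419327_at read 7.58, 8.59 and 6.95, on the side of the Adi1 level in each. Of the 4 left-out tumours, Pdxdc1 1452705_at lay on that side in only 2, and 1436372_a_at in 3. The correlation of 0.222 was that of subline 23 tumour 3, so its readings say little.

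Of the methionine salvage pathway only Adi1 itself passed. Of its 5 genes on array A, the other four encode Mtap, which cleaves methylthioadenosine, and Mri1, Apip and Enoph1, which act between Mtap and Adi1; Kyat1, an aminotransferase of the last step, was on array B. Mtap 1424425_a_at read 8.79, 9.24 and 9.68 in Adi1-high and 8.82, 9.09 and 9.42 in Adi1-low tumours, which overlapped almost wholly. Its difference was 0.14 ± 0.05 (adjusted p = 0.601). Enoph1 differed by 0.09 ± 0.06 at its brightest probe set (adjusted p = 0.723), Kyat1 by 0.04 ± 0.07 (adjusted p = 0.990), Apip by -0.0023 ± 0.026 (adjusted p = 0.983) and Mri1 by -0.00041 ± 0.031 (adjusted p = 0.997).

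The neighbouring pathways did not pass either. None of 11 measured genes of the methionine cycle and transsulfuration passed on array A (median difference -0.0064), nor of 7 genes of polyamine synthesis and turnover (median 0.02) or of Mmp14 and its partners (median 0.0037). Odc1, the first enzyme of polyamine synthesis, lies 35 measured genes from Adi1 and differed by 0.21 ± 0.10 at its brightest probe set (adjusted p = 0.619). Mmp14 read 8.52, 9.28 and 10.78 in Adi1-high and 8.53, 9.07 and 9.73 in Adi1-low tumours, a difference of 0.29 ± 0.11 (adjusted p = 0.587). Its inhibitor Timp2 differed by 0.20 ± 0.10 (adjusted p = 0.649).

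Lists that describe the state of the tumour also did not pass. Median differences on array A were -0.02 for 15 proliferation genes, 0.10 for 9 interferon-stimulated genes and -0.09 for 8 milk protein genes. On array A, the probe sets with the smallest p in these lists were those of Cdc20, an activator of anaphase, at -0.06 ± 0.04 (adjusted p = 0.725), Ifit2, an interferon-induced protein, at 0.17 ± 0.14 (adjusted p = 0.736), and the milk protein gene Lalba at -0.16 ± 0.18 (adjusted p = 0.819). In all, 1 of 62 measured genes of 7 pathway lists was called on array A, Adi1 itself. An unadjusted p under 0.05 was found for 5 of the 62 (8.06%, against 7.7% of all probe sets). All were higher in the Adi1-high tumours: Adi1, Mtap, Odc1, Oaz2 and Mmp14. Adi1 is the gene used for the split, so its place and direction among them are no independent result. On array B limma called none of 15, and none had an unadjusted p under 0.05.

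Cell type markers gave 0 called of 90 measured genes in 12 lists on array A in limma, of which 1 (1.11%, against 7.7% of all probe sets) had an unadjusted p under 0.05. On array B it called 0 of 16, of which 3 (18.8%, against 5.2%) did. The array A gene was Acta2, a smooth muscle actin of myoepithelial cells, at 0.30 ± 0.15 (adjusted p = 0.645). The keratins Krt5 and Krt14 of the same list differed by -0.24 ± 0.13 and -0.23 ± 0.13, and the list's median was 0.05. On array B the 3 were the oxytocin receptor gene Oxtr at 0.31 ± 0.09 (adjusted p = 0.514), the matrix protein gene Fbln1 at -0.10 ± 0.04 (adjusted p = 0.890) and the keratinocyte gene Ivl at -0.12 ± 0.04 (adjusted p = 0.885). The summed level of 9 skeletal muscle genes had a log2 median of 13.11 in Adi1-high and 13.52 in Adi1-low tumours and ranged widely in both, from 10.21 to 15.87 and from 10.30 to 15.42. Adipocyte sums, from 8 genes, had medians of 11.76 and 11.55. With the scores of those 4 cell type lists in the fit, 7 of the 8 array A calls stayed, Sypl being lost.

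Genes with 2 levels on other chromosomes were set beside the split for comparison. Of 8 on array A, Mtmr9 among them, only Pdxdc1 passed. At an unadjusted p under 0.05 there were 2 higher (Pdxdc1 and Uqcr10) and 2 lower (Mtmr9 and Pdk1) among the 8. Of all 28 array A probe sets of these genes, 2 were higher and 9 lower at that level, against 7.7% of all probe sets. These shares were not compared by a test. Uqcr10, a subunit of respiratory complex III on chromosome 11, ran from 11.17 to 11.81 in Adi1-high and from 11.24 to 11.72 in Adi1-low tumours (difference 0.11 ± 0.04, adjusted p = 0.616). Pdk1 on chromosome 2, a kinase that switches off pyruvate dehydrogenase, ran from 8.39 to 9.54 and from 8.55 to 9.47 (difference -0.34 ± 0.10, adjusted p = 0.399). Paip1 1425521_at on chromosome 13 differed by -0.48 ± 0.23 (adjusted p = 0.643), Cap1 1417461_at on chromosome 4 by 0.04 ± 0.09 (adjusted p = 0.926), and the H2-D1 and H2-Ea probe sets on chromosome 17 by -0.04 to 0.20. The ranges of both groups overlapped for each of them.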

How the data were processed

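Total RNA of mammary tumours, extracted with Trizol and RNeasy columns and labelled with biotin, was hybridised to MOE430A and MOE430B arrays. The deposited values are on the log2 scale, summarised per probe set by the authors with RMA, per the submitters' processing notes, and were used as deposited. The number of arrays limits the precision. Control probe sets (64 per array type) were left out of the tests. No pair of arrays was identical, and 0 columns of other series were found. Levels were set per tumour from array A and carried to array B by title. A single gene symbol was given for 20380 probe sets of array A and for 14661 of array B. Chromosomes and gene order came from a RefSeq table (GRCm38.p6), with 624 measured genes on chromosome 12.

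Differences were fitted over all probe sets with limma 3.58.1 in R 4.3.3, with subline as a random block (duplicateCorrelation), and Benjamini-Hochberg adjustment over the whole array type. An adjusted p under 0.05 counts as called. An SE is that of the limma fit, and the midpoint of a probe set lies between its group means. Lists used the brightest probe set of each gene. Named genes were all Adi1 probe sets, called genes with 1 symbol, all methionine salvage genes, genes with 2 levels on other chromosomes, and, in other pathway lists, the 2 genes with the smallest p; all probe sets of a called gene are given. The members and lists were chosen with earlier results of these data known. The main fit was tested on simulated data in which all probe sets had the same within-subline correlation. That test does not cover the other fits, or probe sets that follow the subline more closely. The alternatives were the subline as fixed block, as means or absent, a replicate block, all 56 tumours, and other filters, scalings and weights. Further ones were composition covariates, the Adi1 value in place of the levels, and each replicate number or subline left out. Those of the comparison within sublines, and the values of left-out tumours and of chromosome 16 neighbours, were added after seeing the data.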

Additional observations from a re-analysis of the deposited data

Results flagged for a closer look

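In subline 2, whose 4 tumours allow a check for a single tumour far from the others, 5 of 77 probe sets had one. Chance gives about 1 in 20 for tumours of 1 kind, but 2 of these were Adi1-high and 2 Adi1-low. That rate therefore need not hold here. Tumour 1 had the lowest median correlation with other arrays in this subline, 0.980 on array A and 0.984 on array B. Tumour 1 was high for the methionine salvage gene Mri1 at 1426549_at, at 5.58 with the next tumour at 5.10, for Uqcr10 at 1424364_a_at, at 11.59 with the next at 11.42, and for the thymidylate synthase gene Tyms at 1442192_at on array B, at 6.25 with the next at 5.92. Tumour 3 was high for Ahcyl2 at 1428195_at, at 8.91 with the next at 8.67. Tumour 2 was high for Oaz2, an inhibitor of ornithine decarboxylase, at 1426763_at, at 10.33 with the next at 10.22.

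The difference between Adi1-high and Adi1-low tumours was itself compared between sublines 2 and 20 by an interaction term in limma, with p-values adjusted over all probe sets, and probe sets of the two-level genes H2-D1, H2-Ea and Paip1 passed. The Adi1-low tumours of subline 20 number 1, so its spread is assumed to be that of the other groups of tumours in the fit, and the values describe these 7 tumours. The genes H2-D1 and H2-Ea encode histocompatibility proteins. H2-D1 at 1425614_x_at differed by -4.33 in subline 2 and 4.37 in subline 20, a difference of -8.70 (adjusted p = 1.54e-07). H2-D1 at 1452544_x_at gave -3.34 and 3.48, a difference of -6.82 (adjusted p = 3.87e-07), and at 1427651_x_at -2.88 and 2.59, a difference of -5.46 (adjusted p = 1.29e-05). H2-D1 at 1450170_x_at went the other way, 3.65 and -3.90, a difference of 7.55 (adjusted p = 0.000673). H2-Ea gave -2.78 and 3.65 at 1422892_s_at, a difference of -6.43 (adjusted p = 5.38e-07), and -0.57 and 0.61 at 1422891_at, a difference of -1.18 (adjusted p = 0.0425). Paip1 at 1441955_s_at on array B gave -1.02 and 0.26, a difference of -1.27. Of the 22511 tested there, many were called for this term, as the count below shows. The Paip1 call therefore does not set this gene apart from the rest of array B. Over all probe sets the interaction was called for 11 on array A and 1245 on array B.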

How the results depend on the processing

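None of the 10 called probe sets changed sign under an alternative, whereas 39 of the other 66 probe sets with values did in at least 1, without passing the test in any. The 10 called probe sets gave 349 values under the alternatives, of which 296 stayed called and 53 did not. Zfp277 1433953_at and Pdxdc1 1419327_at and 1452705_at stayed called in each of their 35. Adi1 1438759_x_at and Pik3cg were lost only with the subline as a fixed block. Pdxdc1 1436372_a_at was lost in 3, 1416153_at in 8, Sypl in 12 of 34, 1441848_at in 12 and Bfar in 16. The array A count of 8 became 5 with all 56 tumours and 17 with array weights, 5 to 8 with a replicate number left out and 6 to 13 with a subline left out. The array B count of 2 became 1 with the subline as a fixed block, on subline means or with all 56 tumours, and 0 without sublines 2 and 20. It was 8 with composition covariates. With the Adi1 value fitted in place of the levels it was 6, which counts slopes on that value and not group differences. The 1 probe set called with the fixed block, or on subline means, was not among the 2. It was 0 to 1 with a replicate number and 0 to 4 with a subline left out. Within sublines 2 and 20, the array A count of 7 became 11 with array weights and 30 with composition covariates, 1 to 832 with a replicate number and 5 to 17 with a subline left out. The array B count of 1 became 0 with only the brighter probe sets (mean above the median) or with array weights, 2 with quantile normalization, 0 to 327 with a replicate number and 6 to 1023 with a subline left out. Without tumours numbered 2, only subline 2 bore on this difference, with tumour 1 against tumours 3 and 4. Without subline 2, only subline 20 bore on it, with 1 Adi1-low tumour. The cause of these changes in count was not tested. Within 50 genes of Adi1 the 3 called neighbours became 2.

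The replicate numbers do not pair tumours: the median correlation of same-numbered tumours of different sublines was 0.00068 on array A and 0.0105 on array B. With a replicate block, limma called 8 probe sets on array A, the same 8, and 1 on array B, and within sublines 8 and 0. The number of sublines and of arrays limits the precision, and subline 20 has 1 Adi1-low tumour.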
